A study of Gallus gallus with 5 samples.

Results

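Chromosome 2 is one of the large chromosomes (macrochromosomes) of the chicken, and the regions described here are all peaks that the deposited lists place on it. They number 44370 of the 425322 peaks in the 5 lists. By list, chromosome 2 held 8847 of 103231 H3R2me2s peaks in replicate 1 and 14330 of 120536 in replicate 2. It held 6343 of 77936 H4R3me2a peaks in replicate 1, 13381 of 113426 in replicate 2 and 1469 of 10193 input peaks. Chromatin immunoprecipitation with sequencing (ChIP-seq) was done on nuclei of immature chicken erythrocytes in G0, the nucleated red cells of birds at a stage after division has ceased. The groups were H3R2me2s (2 libraries), H4R3me2a (2 libraries) and input chromatin without antibody (1 library). All used nuclei fixed in 0.5% formaldehyde and chromatin sheared to about 200 bp. Replicate 1 of each mark was sequenced on SOLiD and called against a control library, whereas Illumina was used for replicate 2 and for the input, which had no control in calling. Replicate number therefore stands for platform, depth, caller and use of a control alike. Nothing in the labels says that the libraries of a mark came from separate animals. In the Illumina headers the alignment files carry other numbers than in the labels, while run names match.

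In H3R2me2s, arginine 2 of histone H3 carries a methyl group on each of its end nitrogens. PRMT5 is an enzyme that makes symmetric dimethylarginine, and this mark is known to be read by WDR5, a subunit of complexes that methylate H3K4 at promoters. In H4R3me2a, arginine 3 of histone H4 carries both methyl groups on one nitrogen. It is laid down by PRMT1 and known from active chromatin, including the beta-globin locus of erythroid cells. Bird genomes consist of a few macrochromosomes, which are poor in genes per length, and many small microchromosomes, which are rich in genes. A peak is a stretch where tags pile up over the local background, so a count of peaks per Mb describes how many such stretches passed a caller's threshold and not the amount of a mark.

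Chromosome 2 had the lowest density of called peaks of the 27 autosomes that spanned over 1 Mb, in all 4 ChIP lists. It was chosen for this, so the densities are a description. H3R2me2s had 57.1 peaks per Mb on chromosome 2 in replicate 1, against 113 on the 28 other numbered autosomes pooled. In replicate 2 it had 92.5 per Mb on chromosome 2 and 128 on the others. H4R3me2a had 40.96 per Mb on chromosome 2 in replicate 1, against 85.8 on the others, and 86.4 against 121 in replicate 2. The next in order was chromosome 1 in replicate 1, with 64.3 (H3R2me2s) and 46.8 (H4R3me2a) per Mb, and chromosome 4 in replicate 2, with 94.3 and 88.6, so in replicate 2 the lowest chromosomes lay close together. The input had 9.49 peaks per Mb on chromosome 2 and 9.93 on the other autosomes, and chromosome 2 was then number 15 from the lowest. Density relative to the other autosomes was 0.614 ± 0.157 in H3R2me2s libraries and 0.595 ± 0.167 in H4R3me2a libraries (SD, n = 2 each), while the input had 0.955. The SD spans platform, depth and caller, which all differ between the replicates.

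Peaks on chromosome 2 were somewhat narrower than those of the other autosomes pooled in replicate 1 and of nearly the same width in replicate 2. The median width of H3R2me2s peaks was 651 bp on chromosome 2 and 713 bp on the other autosomes in replicate 1, and 605 and 621 bp in replicate 2. For H4R3me2a it was 734 and 815 bp in replicate 1, and 426 and 432 bp in replicate 2. Chromosomes 1 and 3 were close to chromosome 2 in replicate 1, with 663 and 663 bp for H3R2me2s and 741 and 742 bp for H4R3me2a. Wide peaks differed more from the pool of the other autosomes, but less from the large chromosomes 1 and 3. Peaks of 3 kb or more made up 0.803% of H3R2me2s peaks in replicate 1 on chromosome 2, against 3.20% on the other autosomes, and 1.51 against 4.55% of H4R3me2a peaks. Chromosomes 1 and 3 had 1.42 and 1.0005% for H3R2me2s and 2.00 and 1.36% for H4R3me2a in that replicate, so for H4R3me2a chromosome 3 was below chromosome 2. Replicate 2 had few such peaks anywhere, with 12 of H3R2me2s and 4 of H4R3me2a on chromosome 2. The deposited fold enrichment over the local background stood on opposite sides of the pool in the replicates. Its median for H3R2me2s was 9.34 on chromosome 2 against 10.1 on the other autosomes in replicate 1, where chromosomes 1 and 3 also had 9.34, and 3.20 against 2.83 in replicate 2, where both had 3.14. For H4R3me2a it was 12.5 against 14.6 in replicate 1, with 12.6 on chromosome 1 and 13 on chromosome 3, and 3.22 against 2.97 in replicate 2, with 3.22 and 3.19. Peaks covered 4.43% (replicate 1) and 6.77% (replicate 2) of chromosome 2 for H3R2me2s, while H4R3me2a covered 3.62 and 4.64% and the input 0.189%.

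Along the chromosome, density was uneven in largely the same places for both marks and in both replicates. Peaks were counted by their midpoints in 154 full bins of 1 Mb. H3R2me2s bins held 4 to 345 peaks in replicate 1 with a median of 47, and 24 to 242 with a median of 83 in replicate 2. H4R3me2a bins held 3 to 251 peaks in replicate 1 with a median of 33, and 20 to 247 with a median of 77 in replicate 2. Input bins held 1 to 69 peaks with a median of 8, so no full bin was without a peak in any list. Across the 154 bins Spearman's rho between replicates was 0.90 for H3R2me2s and 0.88 for H4R3me2a. Between the marks rho was 0.97 in replicate 1 and 0.98 in replicate 2, and between each ChIP list and the input it lay from -0.07 to 0.03. The bins share libraries and assembly and neighbours resemble each other, so these correlations are descriptions only. The densest 15 bins held 24.3% (replicate 1) and 18.2% (replicate 2) of H3R2me2s peaks in full bins, 25.02 and 18.6% of H4R3me2a peaks and 28.5% of input peaks. Chromosomes 1 and 3 were a little more uneven in the ChIP lists, with 28.4 and 29.7% of H3R2me2s peaks of replicate 1 in their densest 20 and 11 bins. Of the 15 densest bins of replicate 1, 10 were among the 15 densest of replicate 2 for H3R2me2s and 12 for H4R3me2a. Of the 15 poorest, 10 and 9 were.

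**Figure D1:**
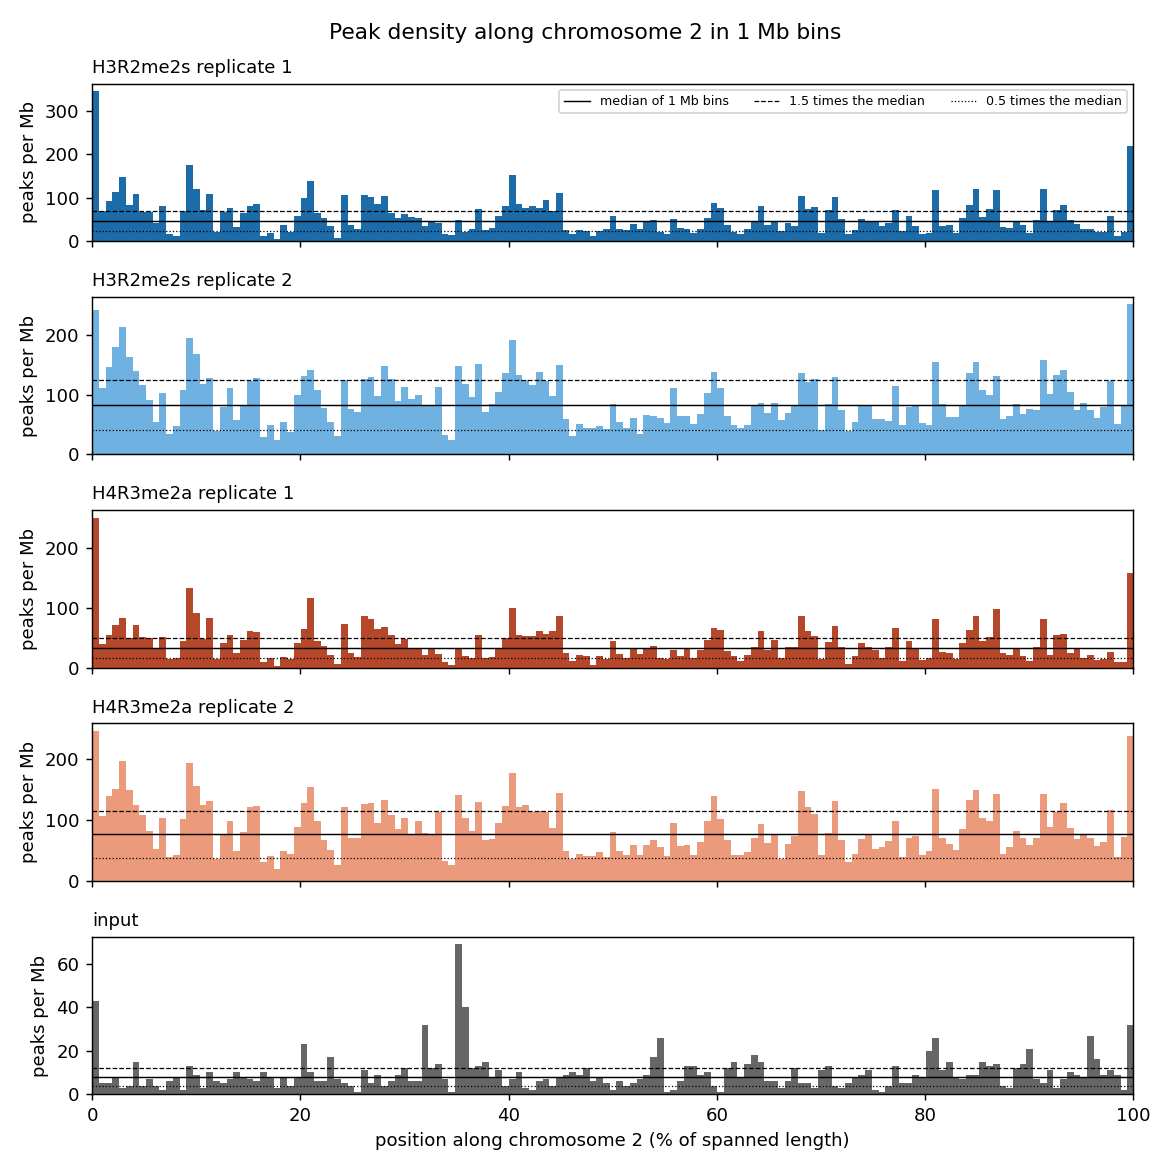
Peaks per Mb (vertical axes) in 1 Mb bins along chromosome 2 (horizontal axis, percent of its spanned length) for the 4 ChIP lists and, at the bottom, the input; lines mark each list's median bin and 1.5 and 0.5 times that median. The first bin is the highest of the full bins in the 4 ChIP lists (345, 242, 251 and 247 peaks), while the highest input bin, with 69 peaks, lies in the interior.

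**Figure D2:**
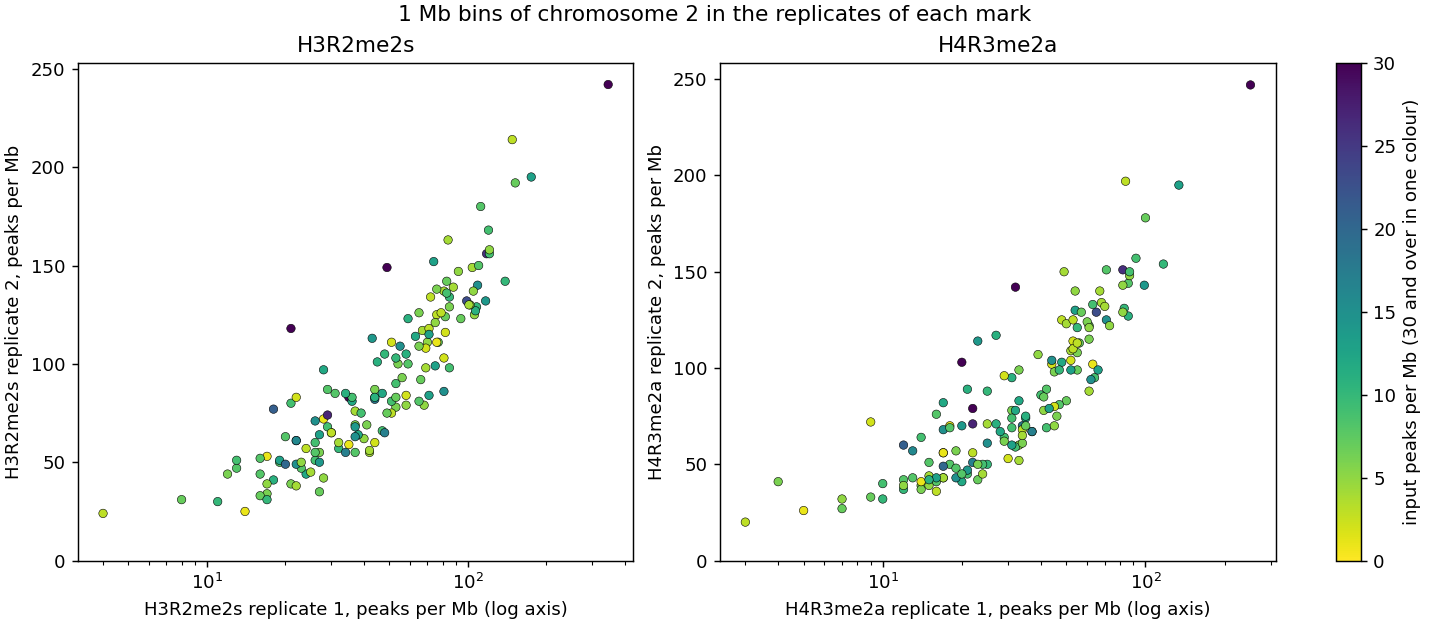
Each point is a full 1 Mb bin of chromosome 2, with its peaks per Mb in replicate 1 (horizontal, log axis) and replicate 2 (vertical), coloured by input peaks per Mb. Bins follow one rising band in both marks (rho 0.90 and 0.88), and the bins of 118 and 149 H3R2me2s peaks in replicate 2 that stand above it hold 40 and 69 input peaks.

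Both tips of chromosome 2 were dense in every list, and next to the tips the chromosome was asymmetric. In the first 1 Mb, H3R2me2s had 345 peaks in replicate 1 and 242 in replicate 2, H4R3me2a had 251 and 247, and the input had 43. These were 6.44, 2.74, 6.41, 2.99 and 4.67 times the density of the interior, the part more than 10 Mb from either end. In the last 1 Mb H3R2me2s had 193 and 229 peaks, H4R3me2a had 140 and 216, and the input had 28, which were 3.60, 2.60, 3.58, 2.61 and 3.04 times the interior. The input was thus raised at both tips as well, and its part in the ChIP peaks there was not tested. Of the ChIP peaks of the first 1 Mb, 317 and 211 of H3R2me2s and 224 and 212 of H4R3me2a lay off input peaks. The share on input peaks was 8.12 and 12.8% there for H3R2me2s, against 5.48 and 7.33% over the whole chromosome. For H4R3me2a it was 10.8 and 14.2%, against 7.61 and 7.91%, so in each list it was higher in the first 1 Mb. Peaks covered much of the first 1 Mb in replicate 1, with 46.4% for H3R2me2s and 46.8% for H4R3me2a, against 20.8 and 15.4% in replicate 2 and 0.785% for the input.

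Beyond the first 1 Mb, the rest of the first 10 Mb was on average above the interior in the ChIP lists and below it in the input. Its density was 1.64 and 1.54 times that of the interior for H3R2me2s, 1.43 and 1.498 times in the H4R3me2a lists, against 0.664 times in the input. Not every bin was above. The bin chr2:9000001-10000000 held 42 and 55 H3R2me2s peaks and 33 and 52 H4R3me2a peaks, fewer per Mb than the interior in each ChIP list. The rest of the last 10 Mb was the other way round, at 0.599 and 0.936 times the interior for H3R2me2s, 0.486 and 0.889 times in the H4R3me2a lists, against 1.23 times in the input. Pooled over both ends of 10 Mb, the ratio to the interior was 1.44 ± 0.0913 in H3R2me2s libraries, 1.36 ± 0.00447 in H4R3me2a libraries (SD, n = 2 each) and 1.24 in the input. Without the terminal 1 Mb of each end it was 1.18, 1.08 and 0.948, so a pooled excess at the ends rested to a large part on the tips. For H4R3me2a it was then 0.957 in replicate 1 and 1.19 in replicate 2, so the small SD of the pooled ratio does not hold for its parts. On chromosome 1, the tips stood out in the same way, with 5.16 and 6.20 times the interior density for H3R2me2s in replicate 1. On chromosome 3 the first 1 Mb was 1.95 times the interior in that list and the rest of the first 10 Mb was 2.28 times, so there the dense end was broader than its tip.

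**Figure D3:**
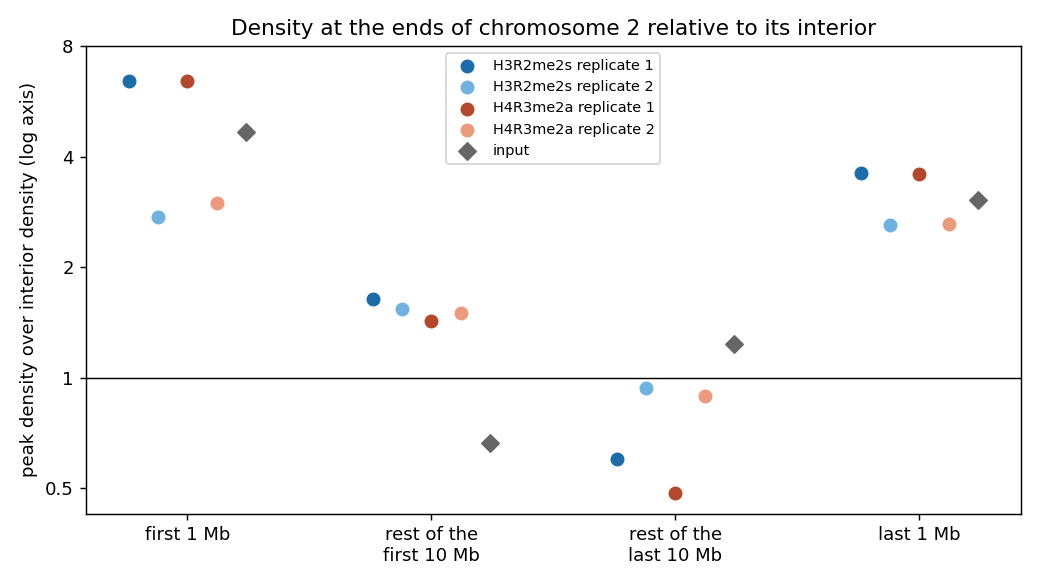
Peak density in the first and last 1 Mb of chromosome 2 and in the rest of its first and last 10 Mb, each divided by the density of the interior of the same list (log axis; circles for the 4 ChIP lists, diamonds for the input, 1 library each). At both tips all 5 lists lie above 1, in the rest of the first 10 Mb the ChIP lists lie above 1 (1.43 to 1.64) with the input at 0.664, and in the rest of the last 10 Mb they lie below 1 with the input at 1.23.

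Dense bins were defined by at least 1.5 times the list's median bin in both libraries of a mark, and poor bins by at most 0.5 times. There were 34 dense bins for H3R2me2s (22.1% of 154), where the same rule called 22.2% of the 1 Mb bins of all autosomes with 20 or more bins. For H4R3me2a there were 32 (20.8%), against 21.6% over those autosomes, and the input had 38 (24.7%), against 26.8%. The share of dense bins on chromosome 2 was therefore close to that of the autosomes. The marks had 30 dense bins in common, 88.2% of those of H3R2me2s and 93.8% of those of H4R3me2a. Of these 30 bins, 7 were also dense in the input, and their input counts ran from 3 to 43 with a median of 8, the median of all bins. Of the 30 bins, 21 lay in the first 77 Mb and 9 beyond. The number of dense bins depended on which peaks entered: among the upper 50% of each list by fold enrichment H3R2me2s had 11 and H4R3me2a 15, and with equal numbers of top peaks H3R2me2s had 19.

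H3R2me2s had 7 dense blocks of consecutive bins, at chr2:2000001-7000000, chr2:14000001-16000000, chr2:31000001-33000000, chr2:40000001-42000000, chr2:61000001-65000000, chr2:130000001-132000000 and chr2:143000001-145000000. H4R3me2a had 8, of which 5 had the same limits as H3R2me2s blocks. Its block near the start was shorter, chr2:2000001-5000000, and it had further blocks at chr2:23000001-25000000 and chr2:105000001-107000000 and none at 143 Mb. Each of these differences came from a bin just under a threshold. The bin at 5 Mb held 49 H4R3me2a peaks in replicate 1, against a threshold of 49.5. In replicate 2 the bins at 23 and 106 Mb held 124 and 121 H3R2me2s peaks, against 124.5. That at 143 Mb held 113 H4R3me2a peaks, against 115.5. No block particular to a mark can be read from this. The longest was the H3R2me2s block at chr2:2000001-7000000. It held 109 peaks per Mb in replicate 1 and 169 in replicate 2, where H4R3me2a had 65.8 and 153 and the input 7. In the block at chr2:61000001-65000000 H3R2me2s had 98.5 and 147 peaks per Mb, H4R3me2a 64.5 and 137 and the input 6. At chr2:14000001-16000000 H3R2me2s had 148 and 182, H4R3me2a 113 and 176 and the input 11. In the first of these blocks and in that at 61 Mb input density lay below the input's median bin, and in the block at 14 Mb it lay above.

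Among full bins ranked by their mean rank over replicates, chr2:14000001-15000000 came after the first 1 Mb for both marks, with 175 and 195 H3R2me2s peaks, 134 and 195 H4R3me2a peaks and 13 input peaks. Of the ChIP peaks in it, 1.71 to 4.62% touched an input peak, against 5.48 to 7.91% over the whole chromosome. The bin was ranked by its ChIP peaks, the denominator of this share, which by itself lowers the share. It was also a dense bin of the input. The bin chr2:4000001-5000000 followed for H3R2me2s with 148 and 214 peaks, and it held 84 and 197 H4R3me2a peaks and 3 input peaks. In replicate 2 alone it was denser than the bin at 14 Mb for both marks. The last bin, which is not full, had more peaks per Mb than the bin at 14 Mb in all 4 ChIP lists. The bin chr2:62000001-63000000 was also among the 5 densest of each mark, with 152 and 192 H3R2me2s peaks, 100 and 178 H4R3me2a peaks and 7 input peaks. The other bins of the 5 were chr2:15000001-16000000 for both marks and chr2:32000001-33000000 for H4R3me2a.

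Poor bins were fewer than over the autosomes. H3R2me2s had 11 (7.14%), where the rule called 13% of the bins of the autosomes with 20 or more bins, and H4R3me2a had 9 (5.84%), against 12.4%. The input had 34 (22.1%), against 16.7%. In replicate 1 alone 30 bins were poor for H3R2me2s and 27 for H4R3me2a, and in replicate 2 alone 12 and 9, so the count was set by replicate 2. The marks had 8 poor bins in common, and 7 of these lay in the first 77 Mb. Both counts include chr2:52000001-53000000 and chr2:53000001-54000000, which hold a stretch empty in all lists. Without these 2 bins, which also moved the medians, H3R2me2s had 9 poor bins (5.92%) and H4R3me2a 10 (6.58%). The poorest bin of both marks was chr2:27000001-28000000, with 4 and 24 H3R2me2s peaks, 3 and 20 H4R3me2a peaks and 3 input peaks. The bin chr2:36000001-37000000 had 8 and 31 H3R2me2s peaks and 7 and 27 H4R3me2a peaks, with 7 input peaks. The bin chr2:25000001-26000000 had 11 and 30 H3R2me2s peaks and 10 and 32 H4R3me2a peaks, with 10 input peaks. Input counts in the last 2 bins were near or above the input median of 8, so these bins were poor in peaks of the marks but not in input peaks. For H4R3me2a, chr2:112000001-113000000 was also among the 5 poorest, with 7 and 32 peaks, against 5 in the input.

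The only poor stretch of consecutive bins of the marks, chr2:52000001-54000000, held a stretch in which no list had a peak. It ran over chr2:52291449-53809194, 1.52 Mb without any peak of either mark or of the input. It was the longest gap between peaks in each of the 5 lists, at 1567 kb in both marks of replicate 1, 1518 kb in both marks of replicate 2 and 1622 kb in the input. The input shares the gap, so no lack of a mark can be read from it, and whether the assembly holds sequence there was not tested. Outside the gap, the remaining 0.482 Mb of these bins held 62.2 and 120 H3R2me2s peaks per Mb, 29.0 and 122 H4R3me2a peaks per Mb and 16.6 input peaks per Mb, which was below the median bin only for H4R3me2a in replicate 1. The next longest gaps between ChIP peaks were far shorter. They were chr2:25370233-25528744 (159 kb), chr2:26996924-27152346 (155 kb), chr2:103520804-103661834 (141 kb) and chr2:27867703-28002973 (135 kb), and none of them held an input peak. In all, 25 gaps of 100 kb or more lay between ChIP peaks on the chromosome.

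On both sides of the gap the replicates stood on opposite sides of their median bins. In the 5 Mb before it, H3R2me2s had 44.2 and 92.6 peaks per Mb in replicates 1 and 2, against medians of 47 and 83. H4R3me2a had 27.8 and 88.6 there, against 33 and 77, and the input had 15, against 8. Just after the gap the input had its longest dense block, chr2:54000001-59000000, with 29.8 peaks per Mb, and its densest bin, chr2:54000001-55000000, with 69. In this block H3R2me2s had 39.6 peaks per Mb in replicate 1 and 117 in replicate 2, which were 0.843 and 1.41 times the list's median bin. H4R3me2a had 28 and 105 peaks per Mb, or 0.848 and 1.36 times the median. Without the peaks on input peaks, H3R2me2s had 33.2 and 98.4 peaks per Mb and H4R3me2a 22.8 and 85.6. These were set against the median bin of the peaks off input peaks, which is another median than before. They were 0.772 and 1.29 times it for H3R2me2s and 0.748 and 1.22 times for H4R3me2a, so the replicates stayed on opposite sides. Replicate 1 was called against a control library and replicate 2 was not, and platform and depth differ as well, so these cannot be told apart here. The largest input cluster on the chromosome, 11 peaks within 5.06 kb at chr2:55124829-55129889, lay in this block. A single peak of each mark in replicate 1 covered all of it. H3R2me2s peaks of replicate 2 covered 92.9% and H4R3me2a peaks 80.2% of it. At the next cluster, chr2:54567107-54569916 with 6 input peaks, H4R3me2a had a peak in replicate 1 over its whole length and H3R2me2s had none, although both marks had peaks there in replicate 2.

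**Figure D4:**
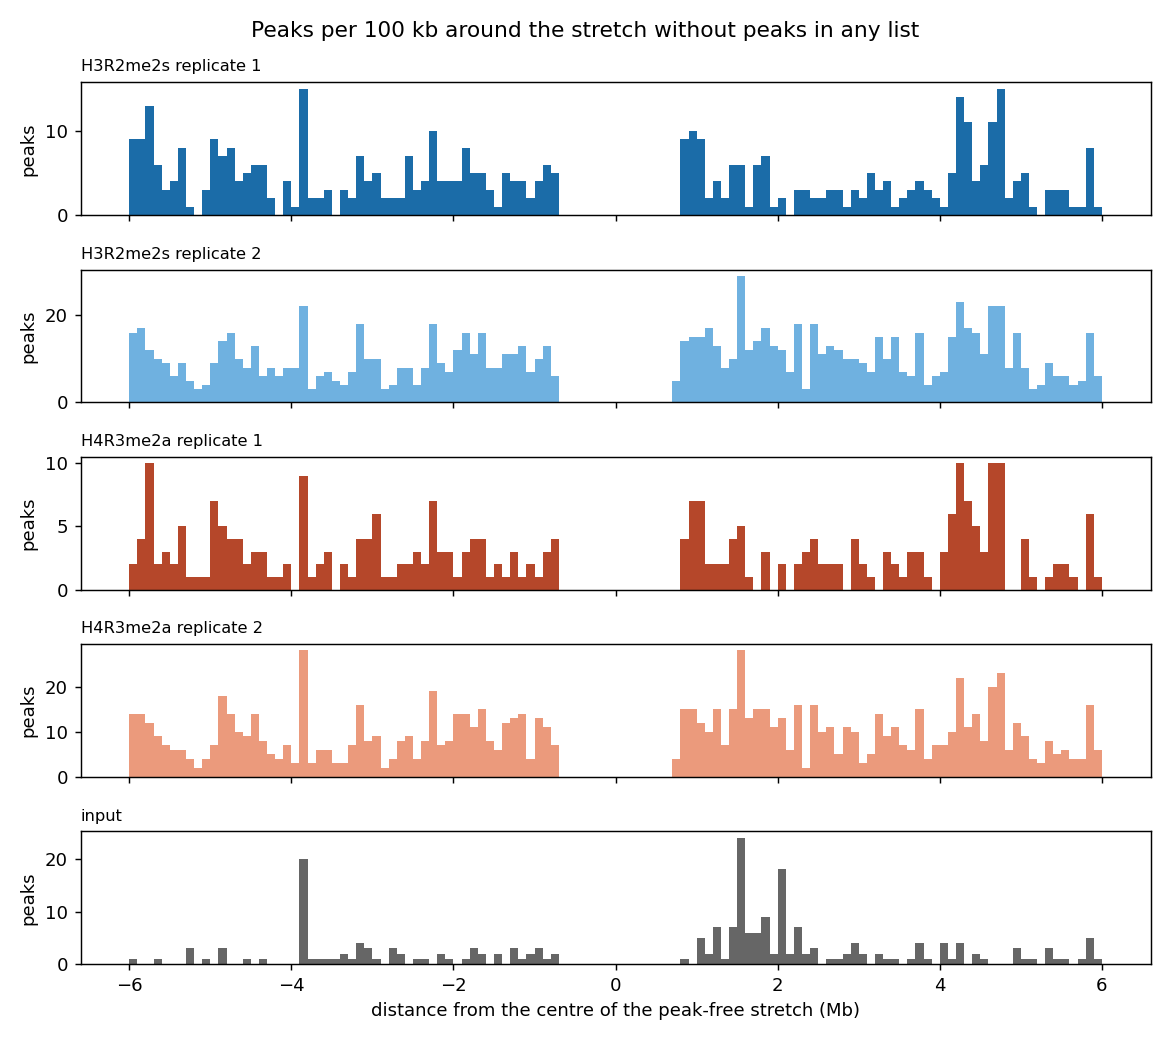
Number of peaks per 100 kb (vertical axes) by distance from the centre of the peak-free stretch of chromosome 2 (horizontal axis, Mb) for the 4 ChIP lists and, at the bottom, the input. All 5 lists are empty over the central 1.52 Mb, and on its right the input rises to 29 peaks per Mb over 5 Mb (15 on the left). In replicates 1 and 2, H3R2me2s has 40.6 and 118 peaks per Mb on the right (44.2 and 92.6 on the left). H4R3me2a has 27.8 and 106 on the right (27.8 and 88.6 on the left).

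Beside blocks defined by a threshold, the chromosome had long runs in which every bin lay on the same side of the median in all 4 ChIP lists. These runs were looked for after the densities had been seen. Of the 154 bins, 60 were above and 57 below the median in all 4 lists. The longest runs above were chr2:1-9000000 and chr2:61000001-70000000, 9 Mb each, and the next was chr2:40000001-47000000. The longest run below, chr2:70000001-77000000, followed directly on the second of these. Across that border H3R2me2s had 22.3 and 45.6 peaks per Mb in the poorer run, against 91.7 and 135 in the denser one. H4R3me2a had 16.4 and 43 peaks per Mb in the poorer run and 63.9 and 125 in the denser one. Bins of the 2 runs cannot overlap in the ChIP lists, since the median set both. The input, which was not used to choose them, had 8.43 peaks per Mb in the poorer run, against 5.67 in the denser one. The next runs below were chr2:25000001-30000000, with 18.6 and 39.4 H3R2me2s peaks per Mb, and chr2:87000001-91000000, with 26.3 and 62.

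The replicates of each mark shared sites on chromosome 2 to a different degree from each side. Of the H3R2me2s peaks of replicate 1 on chromosome 2, 71.7% (95% Wilson interval 70.8 to 72.6) touched a peak of replicate 2, against 65.7% on the other autosomes and 65.9% over the whole series. Of the H3R2me2s peaks of replicate 2, 42.7% (41.8 to 43.5) touched one of replicate 1, against 58.5% on the others and 56.3% in all. For H4R3me2a, 77.2% (76.1 to 78.2) of replicate 1 peaks touched one of replicate 2, against 68.5% on the others and 68.5% in all. Of its replicate 2 peaks, 37.9% (37.1 to 38.8) touched one of replicate 1, against 52.8% on the others and 51.2% in all. On chromosome 2 replicate 1 had fewer peaks per peak of replicate 2 than elsewhere, and each share moves with the number of peaks in the list it is set against. The replicates shared 6541 regions for H3R2me2s and 5288 for H4R3me2a, which covered 2.53 and 1.85% of chromosome 2, against 5.08 and 3.57% of the other autosomes. Intervals cover counting error only and take peaks as independent, which neighbours are not.

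The marks lay together on chromosome 2 as elsewhere, a little less often in replicate 1. Of the H3R2me2s peaks of replicate 1, 62.3% (61.3 to 63.3) touched an H4R3me2a peak on chromosome 2, against 70.3% on the other autosomes and 69.4% in all. Of the H4R3me2a peaks of replicate 1, 84.3% (83.4 to 85.2) touched an H3R2me2s peak, against 90.4% on the others and 89.3% in all. In replicate 2, 73.7% (72.97 to 74.41) of H3R2me2s peaks touched an H4R3me2a peak, against 74.4% on the others and 73.8% in all. Of H4R3me2a peaks of replicate 2, 84.2% (83.6 to 84.8) touched an H3R2me2s peak, against 84.3% on the others and 84.3% in all. The lists of replicate 1 share their control library. Each share also depends on the density of the list it is set against, for which chromosome 2 was chosen. Density relative to the other autosomes was 0.503 (H3R2me2s) and 0.478 (H4R3me2a) in replicate 1, and 0.725 and 0.713 in replicate 2. The part of density in the lower shares of replicate 1 was not tested. Of shared regions, 60.1% of H3R2me2s regions touched an H4R3me2a region, against 62.8% in all, and 75.7% of H4R3me2a regions touched an H3R2me2s region, against 78.2% in all. Regions found in all 4 ChIP lists numbered 4127 on chromosome 2, with a median width of 457 bp, and covered 1.34% of it, against 2.66% of the other autosomes. Of its 1549 bins of 100 kb, such regions occurred in 1142 (73.7%), and 21 (1.36%) were without any ChIP peak. The 21 include all bins that lie within chr2:52291449-53809194, the stretch of 1.52 Mb where the input had no peak either. The 10 bins of 100 kb with the highest cover by such regions lay mostly at the tips, 5 in the first 1 Mb and 3 in the last. The highest was chr2:300001-400000 with 30 regions over 17.3%, and input peaks covered 0.727% of it. In the 10 bins input cover ran from 0 to 3.40%, the highest in chr2:154500001-154600000, against 0.189% over the whole chromosome. Only the bin without an input peak was below that. The exceptions to the tips were chr2:65900001-66000000 in the interior, with 16 regions and no input peak, and chr2:3900001-4000000, with 18 regions.

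A larger share of ChIP peaks touched input peaks on chromosome 2 than elsewhere, in all 4 lists. ChIP peaks are the denominator of this share, and chromosome 2 was chosen for their low density. Its input density was near that of the other autosomes, at 9.49 against 9.93 peaks per Mb, so the choice by itself raises this share. For H3R2me2s it was 5.48% (5.03 to 5.98) on chromosome 2 in replicate 1, against 3.42% on the other autosomes and 3.72% in all. In replicate 2 it was 7.33% (6.92 to 7.77), against 5.80% on the others and 6.13% in all. For H4R3me2a it was 7.61% (6.99 to 8.29) in replicate 1, against 4.82% on the others and 5.16% in all, and 7.91% (7.46 to 8.38) in replicate 2, against 6.19% on the others and 6.63% in all. Of shared regions, 7.83% of H3R2me2s regions touched an input peak, against 5.44% in all, and 10.04% of H4R3me2a regions did, against 7.12% in all. For regions in all 4 ChIP lists it was 10.5%, against 7.07% in all. Seen from the input, 43.4% of its chromosome 2 peaks touched an H3R2me2s peak in replicate 1 and 86.1% in replicate 2, against 49.3 and 89.3% in all. For H4R3me2a these shares were 44.3 and 83.9%, against 52.3 and 87.6% in all. Shares seen from the input depend on the density of ChIP peaks as well. Peaks of high fold enrichment were more often on input peaks. Of the 884 H3R2me2s peaks of highest fold in replicate 1, 14.5% touched an input peak, against 4.48% of the other peaks of that list on the chromosome, and in replicate 2 it was 36.0 against 4.15%. For H4R3me2a the shares were 18.5 against 6.41% in replicate 1 and 37.9 against 4.58% in replicate 2. The peaks of highest fold were also wider, with medians of 938.5 against 636 bp and 1067 against 568 bp in replicates 1 and 2 of H3R2me2s, and 1148.5 against 713 bp and 899 against 401 bp in those of H4R3me2a. The part of width in these shares was not tested.

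**Figure D5:**
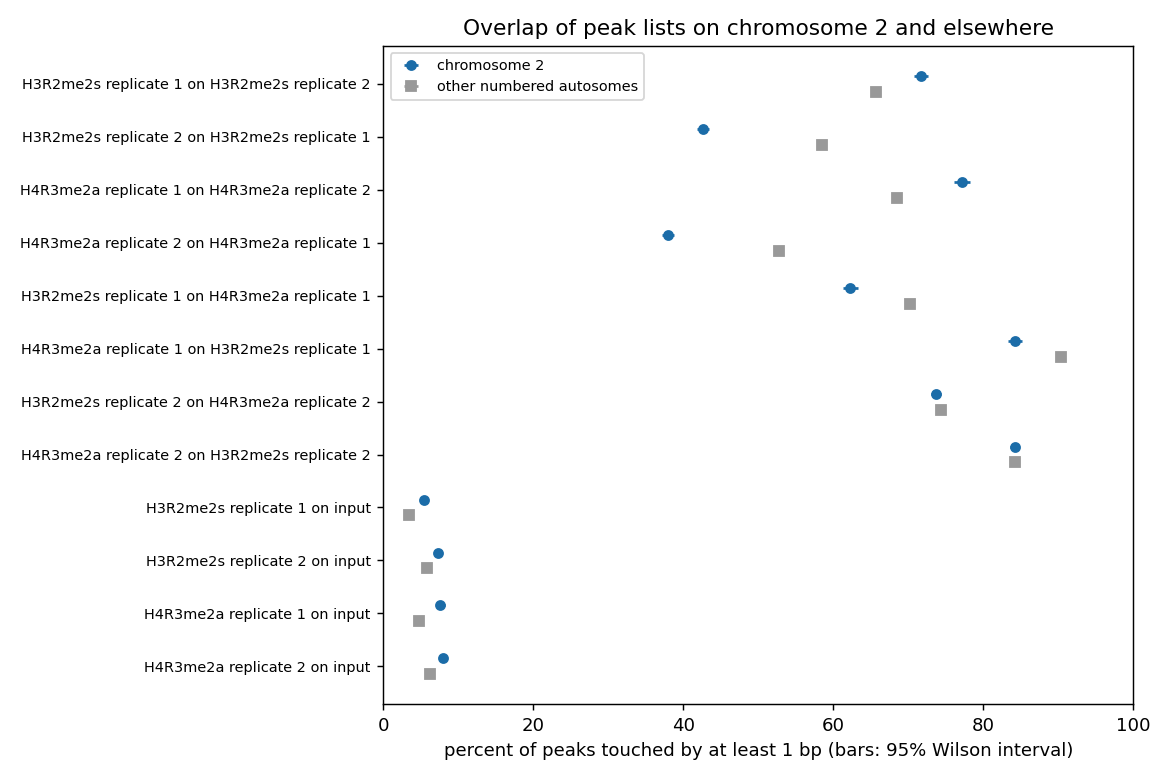
Percent of the peaks of one list that touch a peak of another by at least 1 bp, on chromosome 2 (circles) and on the other numbered autosomes (squares), with 95% Wilson intervals that cover counting error only. On chromosome 2 the shares are higher for replicate 1 on replicate 2 and for all 4 ChIP lists on the input, and lower for replicate 2 on replicate 1 and between the marks in replicate 1. Chromosome 2 was chosen for its low density of ChIP peaks, on which these shares depend.

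Peaks in dense and poor bins differed in these overlaps. In dense bins, 3.42% (2.88 to 4.04) of H3R2me2s peaks of replicate 1 touched an input peak, against 13.3% (8.97 to 19.4) in poor bins. In replicate 2 it was 4.52% (3.98 to 5.13) in dense bins and 11.5% (8.63 to 15.2) in poor bins. For H4R3me2a it was 5.03% (4.25 to 5.94) against 13.3% (7.56 to 22.2) in replicate 1, and 5.03% (4.43 to 5.70) against 12.1% (8.82 to 16.5) in replicate 2. Bins were split by their number of ChIP peaks, which is the denominator of this share, while input counts hardly followed that number. A lower share in dense bins therefore follows from the split. The share of replicate 2 peaks met by replicate 1 was higher in dense bins. For H3R2me2s it was 50.4% there and 33.7% in poor bins, and for H4R3me2a 45.1 and 22.9%. The reverse share did not follow: 70.6% of H3R2me2s peaks of replicate 1 were met by replicate 2 in dense bins and 75.8% in poor bins, and for H4R3me2a both were 75.9%. The number of peaks of the other list in a bin, on which this share depends, was part of the choice of the bins. The median fold of H3R2me2s peaks was 9.44 in dense and 8.41 in poor bins in replicate 1, and 2.98 in dense and 3.53 in poor bins in replicate 2. Median widths in dense and poor bins were 671 and 608 bp in replicate 1 and 611 and 598 bp in replicate 2.

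The regions shared by replicates with the highest mean rank of fold enrichment were spread over the chromosome. For H3R2me2s the first was chr2:127862168-127863053, with a deposited fold of 29.6 (199 tags) in replicate 1 and 8.88 (pileup 112) in replicate 2. H4R3me2a had folds of 28.1 and 10.7 there, and no input peak touched it. It was followed by chr2:21096348-21096866 (folds 20.9 and 11.6), chr2:69010006-69011207 (29.2 and 8.37), chr2:20219850-20220677 (22.04 and 8.64) and chr2:42707757-42708509 (21.5 and 8.71). Input peaks lay on the region at 21.1 Mb, with a fold of 13.8, and on that at 69.0 Mb, with a fold of 5.20. For H4R3me2a the first was chr2:69009846-69011260, with folds of 49.0 and 8.57, which is the site at 69.0 Mb again. The next were chr2:16646422-16647291 (32.8 and 9.31), chr2:40514653-40515330 (36.4 and 8.67), chr2:24741776-24742727 (29.9 and 10.4) and chr2:104324444-104325724 (33 and 8.75), all without an input peak. At all these regions the other mark had peaks as well, in each replicate. The order of the folds over all shared regions was nearly unrelated between replicates, with Spearman's rho of -0.07 over 6541 H3R2me2s regions and -0.04 over 5288 H4R3me2a regions. The genes at these sites were not determined, since no annotation of the files' coordinates was used here.

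Chains of peaks with gaps of at most 1 kb took up a smaller share of peaks on chromosome 2 than on the other autosomes in replicate 1. A fixed gap makes this share depend on density, and chromosome 2 was chosen for low density, so the choice by itself lowers it. Median gaps in replicate 1 were 4.92 kb on chromosome 2 against 1.47 kb on the others for H3R2me2s, and 6.90 against 1.71 kb for H4R3me2a. Chains of 5 or more held 4.97% of H3R2me2s peaks of replicate 1 on chromosome 2, against 21.9% on the other autosomes, and 3.31 against 18.2% of H4R3me2a peaks. Chromosomes 1 and 3 were low as well, with 7.27 and 8.73% for H3R2me2s and 5.82 and 5.61% for H4R3me2a. Replicate 2 had few such chains anywhere, where H3R2me2s had 0.105 against 0.168% and H4R3me2a 0.299 against 0.411%. The longest of H3R2me2s in replicate 1 was chr2:524107-554601, a stretch of 30.5 kb with 13 peaks over 86.5% of its bases, and H4R3me2a of the same replicate reached 84.2%. Cover in replicate 2 was 24.2% by H3R2me2s and 15.4% by H4R3me2a, against 1.44% by the input. A chain at chr2:3890568-3914346 was like it, with cover of 88.2 and 85.5% in replicate 1 and 26.2 and 24.8% in replicate 2 for H3R2me2s and H4R3me2a, and no input peak. After it in length, the H3R2me2s chain of replicate 1 at chr2:84076413-84095994 held 9 input peaks over 9.47% of its bases. The longest of H4R3me2a in replicate 1, chr2:189293-216681, spanned 27.4 kb in the first 1 Mb and held 1 input peak. In replicate 2 no chain exceeded 6.71 kb for H3R2me2s, at chr2:54565691-54572399, or 5.15 kb for H4R3me2a, at chr2:55124765-55129915. Both lay in the longest dense block of the input, chr2:54000001-59000000. Input peaks covered 19.8% of the H3R2me2s chain (8 peaks) and 52.999% of the H4R3me2a chain (11 peaks). In replicate 1 H3R2me2s had no peak in the former, which an H4R3me2a peak covered in full. The next longest H3R2me2s chain of replicate 2, chr2:31197321-31202621, held no input peak. The longest chains of regions found in all 4 ChIP lists, with gaps of at most 3 kb, lay at the tips. They were chr2:154595075-154609753 (14.7 kb, 8 regions), chr2:256437-270041 (13.6 kb, 7 regions) and chr2:154577012-154590566 (13.6 kb, 8 regions), and input peaks covered 17.4, 1.98 and 17.6% of them. Among the widest peaks found in both replicates, the first for H3R2me2s lay over chr2:124710585-124714230, with widths of 6793 and 3646 bp, and the first for H4R3me2a lay over chr2:125307494-125309916, with 8407 and 2423 bp. Input peaks touched both.

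Few shared regions of one mark were without any peak of the other. For H3R2me2s there were 469 of 6541 or 7.17% (6.57 to 7.82) on chromosome 2, against 6.86% over the whole series. For H4R3me2a there were 190 of 5288 or 3.59% (3.12 to 4.13), against 2.32% over the whole series. They were narrower than regions that the other mark's peaks met in each replicate, with medians of 395 against 599 bp (H3R2me2s) and 299.5 against 530 bp (H4R3me2a), and width alone changes how often a region meets a peak. They were scattered, with at most 11 H3R2me2s regions in a 1 Mb bin (chr2:62000001-63000000) and at most 5 H4R3me2a regions. The highest-ranked were chr2:92561234-92561644 for H3R2me2s, with folds of 13.1 and 6.27, and chr2:69003210-69003308 for H4R3me2a, with 15.5 and 5.54. The next of H3R2me2s, chr2:91284175-91284178 and chr2:143445194-143445200, were only 4 and 7 bp wide, where peaks of the replicates barely met. Where a list has no peak, the signal did not pass the caller's threshold, and absence of the mark cannot be read from that.

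The marks were compared over libraries in 3 measures of chromosome 2, by exact permutation (2-sided) with Benjamini-Hochberg adjustment over the 3. Relative density was 0.614 for H3R2me2s and 0.595 for H4R3me2a, a difference of 0.0190 (exact permutation p = 0.667, adjusted p = 0.667). The ratio of the ends to the interior was 1.44 for H3R2me2s and 1.36 for H4R3me2a, a difference of 0.0861 (exact permutation p = 0.3333, adjusted p = 0.667). The share of peaks in the densest 15 bins was 21.3% for H3R2me2s and 21.8% for H4R3me2a, a difference of -0.554 percentage points (exact permutation p = 0.667, adjusted p = 0.667). With 2 libraries per mark no p below 0.3333 was possible, so these tests could neither show nor exclude a difference. In each replicate the sign of each difference was the same, with 0.0258 and 0.0123 for relative density, 0.147 and 0.0247 for the ends and -0.730 and -0.379 percentage points for the densest bins. Permutation within 2 pairs cannot give an exact p below 0.5, so no difference can be read from these signs. Chromosome 2 was also chosen for its density in these lists.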

How the data were processed

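ChIP-seq peak lists of 5 libraries were used, 1 list per library, grouped by the antibody in the labels. Per the file headers, replicate 1 of each mark was called with MACS 1.4.2 against one control of 23.3 M tags (p cutoff 1e-05), and replicate 2 and the input with MACS 2.0.10.20120913 without a control (q cutoff 0.05). No aligner or genome build is named in the sources used here; folder names in the replicate 1 headers hold "gal3". Highest peak ends on chromosome 2 lay between 154843707 and 154873602 in the 5 lists, so all share one coordinate frame, and no coordinate was converted. Tags after filtering, per the file headers, were 14.2 M and 35.1 M for H3R2me2s replicates 1 and 2, 10.3 M and 31.2 M for H4R3me2a and 27.1 M for the input. Groups follow the labels.

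Values deposited per peak were the tag count and a score (10 times −log10 of p) with a false discovery rate in percent for replicate 1, and the pileup signal with −log10 of p and q for the others. Fold enrichment, a ratio, was deposited in all lists. These are the authors' values and were used only within a list.

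The spanned length, 154.874 Mb, is the highest peak end in any list. Lists were compared by overlaps of at least 1 bp, and shared regions are bases covered in both replicates. Python 3.11.15, numpy 2.4.6, pandas 2.3.3 and scipy 1.17.1 were used, and the functions were tested on simulated lists. The named regions follow a rule by rank of density, fold, width and length of chains. Chromosome 2, the lists and the tests were chosen with earlier results of these data known.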

Additional observations from a re-analysis of the deposited data

How the results depend on the processing

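Of 110 alternative values, 76 stayed within the replicate spread, the 95% interval or a factor of 1.5 in the share of bins. Of all values, 12 were added after seeing the data (the span without the empty stretch, ends without their tips, bins without the empty stretch). Some of the 76 that stayed could not have moved. For relative density, the end ratio and the densest bins, leaving out a replicate gives the other library's value, which lies within the replicate spread by construction. The replicate block leaves a difference between the marks unchanged. The density of chromosome 2 relative to the other autosomes stayed below 1 for both marks under each alternative run. Chromosome 2 was chosen for low density in these same lists, so values below 1 from parts of them are no separate support. For the input the relative density was 1.17 in the upper 50% of the list by fold. The ratio of ends to interior was 1.33 for H3R2me2s and 1.25 for H4R3me2a with equal numbers of top peaks, 1.82 and 1.71 with ends of 5 Mb, 1.18 and 1.08 without the terminal 1 Mb, and 1.38 for H4R3me2a in the upper 50%; for the input it was 0.948 without the terminal 1 Mb. The input share in the densest bins was 32.8% with bins of 0.5 Mb. In the upper 50% of each list, overlap of the replicates was 55.3% for H3R2me2s and 62.8% for H4R3me2a, that of H4R3me2a with H3R2me2s was 65.8 and 77.6% in replicates 1 and 2, and that with the input was 4.30 and 6.32% for H3R2me2s and 6.03 and 7.25% for H4R3me2a. The lists are shorter there, which lowers a share by construction. With at least 50% of the shorter peak, overlaps were 69.2 and 75.2% between replicates, 83.5% between the marks in replicate 2 and 4.96% of H3R2me2s replicate 1 with the input. Dense bins numbered 11 (H3R2me2s) and 15 (H4R3me2a) in the upper 50%, and for H3R2me2s 19 with equal numbers and 9 with bins of 2 Mb. These 9 were 11.7% of the 2 Mb bins, where 22.1% of the 1 Mb bins were dense. Poor bins numbered 34 (H3R2me2s) and 31 (H4R3me2a) with bins of 0.5 Mb, which were 11.003 and 10.03% of those bins. With bins of 2 Mb they numbered 2 and 2, or 2.597% for each mark, and 11 (14.3%) for the input. Of the 1 Mb bins, 7.14, 5.84 and 22.1% were poor in H3R2me2s, H4R3me2a and the input. Bin size changes the number of bins, so the counts cannot be compared directly. No share over the autosomes is given for other bin sizes. H4R3me2a had 16 poor bins off input peaks. Leaving out a replicate gave 12 to 30 for H3R2me2s and 9 to 27 for H4R3me2a. Except where said, the cause was not tested. With the replicate number as a block, the differences between the marks (0.0190, 0.0861 and -0.554) had exact p = 0.5 each, the smallest that 2 pairs allow. Same-numbered libraries share a platform, and the block was run for these 3 differences alone, none of which passed a threshold with or without it. Depth limits the lists: replicate 1 had fewer tags than replicate 2 in each mark.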

Other observations

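The balance of the marks along chromosome 2 did not repeat between replicates. With 1 peak added to each bin count, the ratio of H3R2me2s to H4R3me2a peaks per bin had a median of 1.36 in replicate 1 (0.778 to 2.6 over 154 bins) and 1.07 in replicate 2 (0.837 to 1.57). H4R3me2a had more peaks in 3 bins of replicate 1 and in 24 of replicate 2. Across bins the log2 ratios of the replicates had a Spearman's rho of 0.02, given as a description.

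Where peaks touched, summits lay closer between the marks of a replicate than between replicates of a mark. The median distance from an H3R2me2s summit to the nearest H4R3me2a summit was 38 bp over 5510 peaks in replicate 1 and 76 bp over 10561 in replicate 2. Between replicates it was 125 bp over 6345 H3R2me2s peaks and 88 bp over 4896 H4R3me2a peaks. Marks of a replicate share platform and caller, and replicates share neither.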
